A study of Mus musculus with 14 samples.

Results

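Ribosome biogenesis and RNA polymerase I genes were followed in regulatory T cells (Treg cells) that were resting, activated by graft-versus-host disease (GVHD), or taken from tumor ascites. The genes were those whose array symbol starts with Nop, Nol, Utp or Rrp followed by a digit, or is Polr1 followed by a letter from a to h. Of 18193 genes with a probe set of their own, 42 met this rule, and 41 of them were among the 12212 genes bright enough to test; Nol4 was not. The RNA polymerase I subunits were Polr1a to Polr1e, and the others were ordered by the step they serve. RNA polymerase I transcribes the ribosomal RNA precursor in the nucleolus. Small nucleolar ribonucleoproteins modify that precursor, the small subunit processome folds and cuts its first part, and further factors carry the small (40S) and large (60S) subunits through maturation and export. Activated lymphocytes build ribosomes before they divide, and the transcription factor Myc is known to drive many of these genes, so Myc was measured beside them.

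RNA was measured on 14 Affymetrix mouse arrays, 1 per sample, as MAS5 signal intensities. In every group the Treg cells carried a Foxp3-ires-GFP (FoxP3-GFP) knock-in on the 129/SvJ background (H-2b) and were sorted on the reporter. The naive cells came from resting spleens, as naive replicates 1 to 3 and naive replicates 4 to 6. The protocol attached to naive replicates 1 to 3 also covers cells from mice with another tumor; these arrays were taken as naive from their titles and sources. For GVHD (replicates 1 to 3), BALB/c mice (H-2d) were irradiated with 900 cGy and given 2000000 knock-in donor T cells (CD4+ and CD8+) with 2000000 wild-type 129/SvJ bone marrow cells, and spleens were taken on day 4. For tumor (replicates 1 to 5), the knock-in mice received 1000000 cells of P815, mastocytoma cells that came from a DBA/2 (H-2d) mouse, into the peritoneum, and the ascites was taken 5 days later. GVHD was compared with naive replicates 1 to 3 and tumor with naive replicates 4 to 6, as the submitters paired them. A sort purity above 95% is stated for all groups but naive replicates 1 to 3. The titles call the samples biological replicates and do not say whether each stands for its own animal; the p-values therefore speak only of the spread among the samples at hand.

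Signals below are scaled so that the trimmed mean of each array is 500. Changes are differences of log2(signal + 32), which understates the change of dim genes, and the words rose and fell are kept for genes with a limma adjusted p (Benjamini-Hochberg over all 12212 genes) under 0.05. Before scaling, the GVHD arrays had been deposited at a trimmed mean of 1500 and all others at 500, and the GVHD arrays and their controls were written in different number formats, so in that comparison a batch effect and the effect of GVHD cannot be told apart. The share of probe sets at a signal of 100 or more was 45.6% to 55.4% on 13 arrays and 37.3% on tumor replicate 3. Correlations between arrays of a group were 0.936 or higher except in tumor, where the lowest was 0.835. The ratio of the 3' to the 5' Gapdh control probe set, a sign of RNA quality, was 2.19 to 5.11 on 10 arrays, 7.45 to 19.1 on naive replicates 4 to 6 (highest on replicate 4) and 19.9 on tumor replicate 2. Tumor replicates 1, 3, 4 and 5 read 2.19 to 2.64, below all of their controls. In that comparison this difference and the effect of the tumor cannot be told apart. The same ratio for Actb was 1.78 to 2.445 on these tumor arrays and 1.99 to 3.04 on their controls, which overlap. Foxp3 itself was too dim to pass the filter and gives no check of the sort. Of 5 other Treg cell markers 4 passed in neither comparison (Ctla4, Ikzf2, Il2ra and Tnfrsf18), and Izumo1r, the folate receptor 4 of Treg cells, fell in GVHD (-1.68) and in tumor (-2.26).

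Tumor samples also differed from their controls in markers of other cells. Of 14 T cell receptor and lineage genes, 10 fell and none rose, and their summed signal was 9940 to 65192 in tumor against 93510 to 119870 in naive replicates 4 to 6. On tumor replicate 3 Cd3e read 39.5 and Cd4 21.6. Of 11 measured mast cell and mastocytoma genes 9 rose (summed signal 73542 to 143660 against 505 to 8198), and of 14 macrophage and monocyte genes 13 rose (60042 to 132220 against 836 to 12474). Among the controls naive replicate 6 stood apart: its mast cell sum was 8198 against 505 and 567.6 on naive replicates 4 and 5, with Trap1a, a tumor antigen of P815, at 1402 against 6.8 and 16.9, and its macrophage sum was 12474 against 2538 and 836. Without naive replicate 6, 7 of the 41 genes rose in tumor and 0 fell, beside 12.8% and 10.9% of all genes. With it, 16.2% and 15.5% of all genes were called. Of 7 B cell genes, 6 fell (1238 to 8651 against 10093 to 25983). In the bulk RNA of these samples, fewer cells of a type and less RNA per cell cannot be told apart. In GVHD no T cell gene of the 14 and no macrophage gene passed the test, and 1 of 11 mast cell genes fell. The part of these cells in the results below was not tested.

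Of the 42 genes, 34 had an entry in the RefSeq promoter table of the GRCm38.p6 build. The 250 bases before each start were searched for CACGTG, the E-box that Myc binds, which reads the same on both strands. It was found in 6 of 34 (17.6%), against 1854 of all 27025 genes in the table (6.86%). Among the genes that rose in tumor samples it was found in 2 of 8 with an entry, Nop2 and Utp18; among those that rose in GVHD, in 0 of 2; and among those that fell in GVHD, in 1 of 4. The promoters of Nop2, Nop16 and Rrp15 are shown because these 3 genes differed between the tumor and GVHD changes, and that of Utp18 because it holds the E-box, with CACGTG in capitals and the strand of the gene, 5′ to 3′. They lie at chr6:125131633-125131882 (plus strand, Nop2), chr13:54590075-54590324 (minus, Nop16), chr1:186749359-186749608 (minus, Rrp15) and chr11:93885767-93886016 (minus, Utp18).
Nop2: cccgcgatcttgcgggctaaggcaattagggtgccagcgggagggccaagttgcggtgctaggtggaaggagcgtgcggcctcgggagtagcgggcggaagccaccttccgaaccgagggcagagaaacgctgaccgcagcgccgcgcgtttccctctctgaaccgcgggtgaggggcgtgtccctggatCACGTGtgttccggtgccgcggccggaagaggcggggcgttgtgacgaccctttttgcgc
Utp18: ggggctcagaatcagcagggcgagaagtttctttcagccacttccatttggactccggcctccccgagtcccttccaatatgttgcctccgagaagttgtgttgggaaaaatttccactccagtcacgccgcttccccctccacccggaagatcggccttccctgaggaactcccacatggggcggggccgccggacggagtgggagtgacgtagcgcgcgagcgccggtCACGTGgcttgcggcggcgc
Nop16: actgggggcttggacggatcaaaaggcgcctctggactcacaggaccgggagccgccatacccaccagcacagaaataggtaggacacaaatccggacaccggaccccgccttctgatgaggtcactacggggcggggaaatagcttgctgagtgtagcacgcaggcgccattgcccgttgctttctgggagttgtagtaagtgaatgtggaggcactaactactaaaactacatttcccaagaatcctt
Rrp15: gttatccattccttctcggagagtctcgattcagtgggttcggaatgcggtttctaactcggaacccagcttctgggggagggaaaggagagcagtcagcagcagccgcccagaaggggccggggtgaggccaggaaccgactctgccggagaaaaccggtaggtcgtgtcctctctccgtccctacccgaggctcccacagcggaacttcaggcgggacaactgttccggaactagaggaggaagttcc
The E-box begins 60 bases before the start in Nop2 and 20 bases before it in Utp18. The Nop16 and Rrp15 windows do not hold these letters. A match describes the letters only, and no binding was measured.

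In tumor samples 10 of the 41 genes rose (Nop58, Rrp15, Rrp12, Nop2, Nop16, Utp4, Utp6, Utp18, Polr1c and Polr1d), and 1, Nop53, fell, each against naive replicates 4 to 6. The rises are 24.4% of the 41, where 16.2% of all genes tested rose and 15.5% fell (31.7% called either way). The median change of the 41 was 0.33, against -0.06 for all genes, and 30 of the 41 lay above 0. In 8 genes all tumor arrays were above all their controls and in 2 they were all below, together 24.4% of the 41 against 34.4% of all genes (16.5% above and 17.9% below). Scaling bears on these counts: centred on T cell markers, 37 of the 41 rose and 0 fell, with Nop53 at 1.31, but so did 67.0% of all genes (0.246% fell). With the tumor and naive replicate 4 to 6 arrays fitted alone 6 rose and 0 fell (12.7% and 9.83% of all genes), and without naive replicate 5 the rises were 6 (1344 of all 12212 genes). Against naive replicates 1 to 3 instead, 14 rose and 6 fell (21.9% and 25.2% of all genes), and the median of the 41 was 0.09.

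In GVHD-activated cells Nop9, Utp6 and Polr1d rose, and Nol4l, Utp25, Utp20 and Nol8 fell. The 7 called genes are 17.1% of the 41, under the 22.3% of all genes called either way (9.83% up and 12.5% down). The median change was -0.17, against -0.11 for all genes, and 16 of the 41 were above 0. The GVHD and control arrays did not overlap for 14 of the 41 (34.1%; 6 above and 8 below), against 48.7% of all genes (20.8% above and 27.9% below). Without rescaling, 34 of the 42 then tested rose and 1 fell, with Nol8, Utp20 and Utp25 then above 0, and 64.7% of all genes rose too (1.67% fell). Centred on T cell markers none of the 41 were called, beside 1.97% of all genes up and 0.991% down. With any 1 of the 6 arrays left out, 2 fell (8.31% to 10.3% of all genes). In the same cells 16 of 17 cell cycle genes rose, with a summed signal of 257460 to 266590 against 28660 to 34451 in naive replicates 1 to 3. In tumor 11 of the 17 rose (92607 to 123930 against 46248 to 64220).

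**Figure D1:**
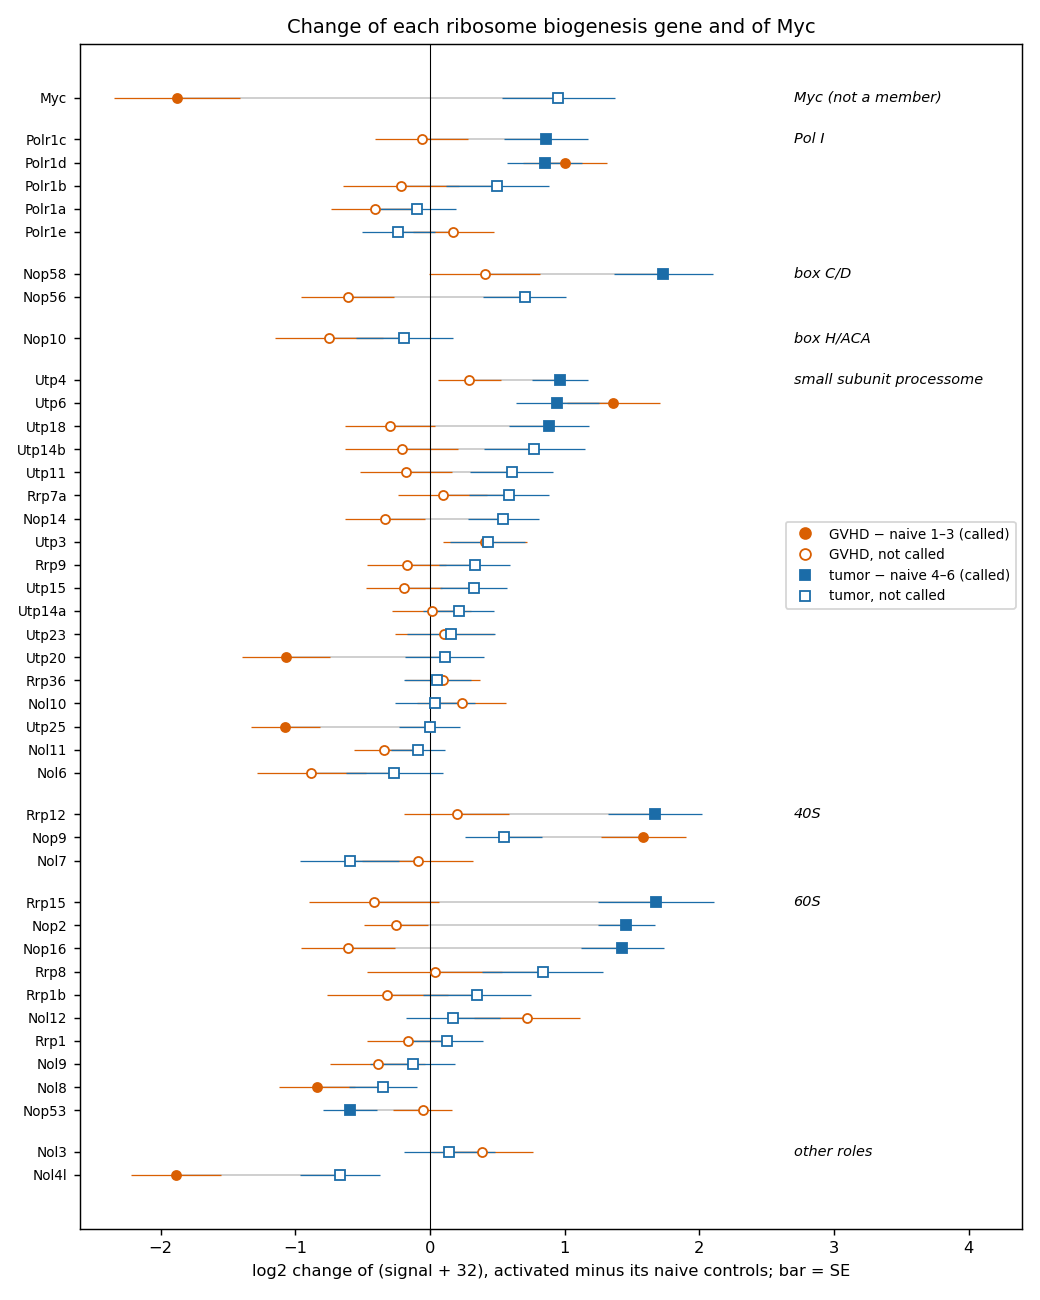
Log2 change of each gene in GVHD against naive replicates 1 to 3 (orange circles) and in tumor against naive replicates 4 to 6 (blue squares), grouped by role; bars are standard errors and filled symbols passed limma's adjusted p of 0.05. The filled squares lie to the right except Nop53 at -0.59, and the filled circles lie on both sides, from Nol4l at -1.88 to Nop9 at 1.58.

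The median log2(signal + 32) of the 41 genes was 9.82, 10.06 and 9.87 on naive replicates 1 to 3, 9.63, 9.78 and 9.80 on GVHD replicates 1 to 3, 9.79, 9.96 and 10.02 on naive replicates 4 to 6, and 10.04, 9.76, 10.43, 10.55 and 10.51 on tumor replicates 1 to 5. All GVHD arrays lay below their controls, and so did their medians over all 12212 genes (8.87 to 8.95 against 9.11 to 9.13). Tumor replicate 2 lay below all of its controls, whereas the other tumor arrays lay above them. Over all genes the tumor medians were 9.18 to 9.27, above the 9.14 to 9.17 of their controls, except on tumor replicate 3 (8.63). Tumor replicate 2 is also the array with a Gapdh ratio of 19.9, and the link between the values was not tested.

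**Figure D2:**
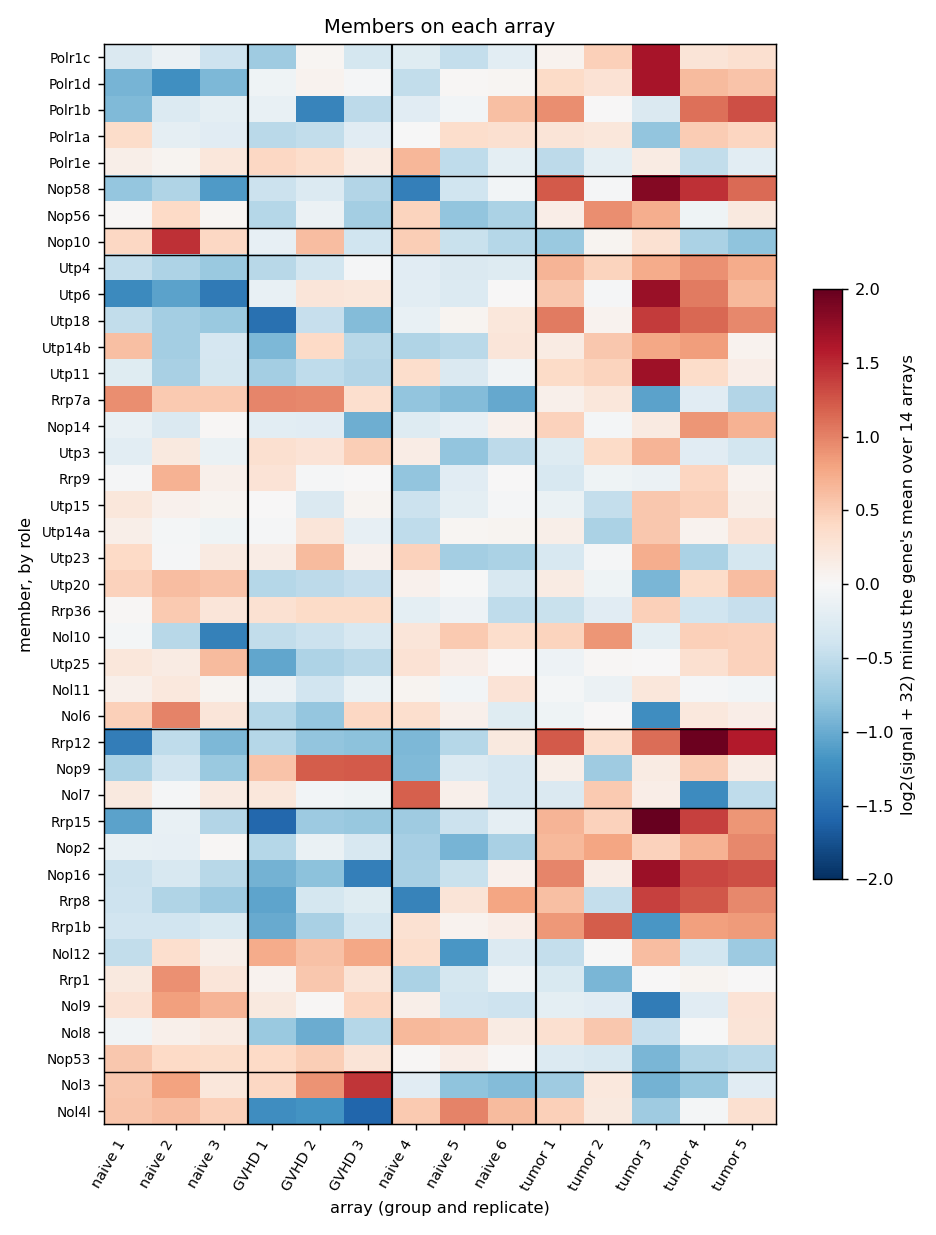
Each gene's log2(signal + 32) on each of the 14 arrays minus its mean over them, with genes by role (horizontal lines) and arrays by group (vertical lines); red is above the mean and blue below. Tumor replicate 3 holds some of the strongest red and blue cells, and tumor replicate 2 is paler than the other tumor arrays for Rrp15, Nop16 and Nop58.

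Myc differed sharply between the activated groups. Its signal was 1766, 1405 and 1697 on naive replicates 1 to 3 and 337, 375 and 567 on GVHD replicates 1 to 3. No GVHD array reached any control, and Myc fell 3.68-fold (log2 -1.88, SE 0.47, adjusted p = 0.00844). Against naive replicates 4 to 6 the change was -1.22, with an adjusted p of 0.0565. Naive replicates 4 to 6 read 1306, 739 and 1063, and tumor replicates 1 to 5 read 2253, 2647, 608, 2404 and 3449.5. Tumor replicate 3 was below all of its controls and the other tumor arrays were above all of them, and the change of 0.95 (SE 0.42) did not pass (adjusted p = 0.0954). Without tumor replicate 3 it was 1.37 (adjusted p = 0.000249). The tumor change minus the GVHD change was 2.83 (SE 0.63, adjusted p = 0.00799).

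Among the RNA polymerase I subunits, those shared with RNA polymerase III were the ones that rose. Polr1d read 4143, 3369.7 and 4227 on naive replicates 1 to 3 and 7429, 8300.1 and 7828 in GVHD. The groups did not overlap, and it rose 2.01-fold (log2 1.00, SE 0.31, adjusted p = 0.0287). Naive replicates 4 to 6, however, read 5623, 8023 and 8102 on this brightest probe set, as high as GVHD, and against them the GVHD difference was 0.13. A dimmer probe set was instead lower in naive replicates 4 to 6 than in naive replicates 1 to 3 (-1.34, limma's adjusted p over probe sets = 0.0248). The GVHD call was lost when any 1 of the 6 arrays was left out. In tumor Polr1d read 10384, 9724, 24866, 12313 and 11745, with replicate 3 far above the others and no overlap with its controls, and it rose 1.81-fold (log2 0.85, adjusted p = 0.0279), a call lost without naive replicate 4 or 5.

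Polr1c read 2927, 2475 and 2999 on naive replicates 4 to 6 and 3639, 4844, 10977, 4154 and 4315 in tumor. Tumor replicate 3 again stood far above, no tumor array overlapped the controls, and Polr1c rose 1.82-fold (log2 0.86, SE 0.31, adjusted p = 0.0437). Without tumor replicate 3 the change was 0.59, still past the test. The call was lost without any 1 of the 6 naive arrays, GVHD replicate 3 or tumor replicate 5. In GVHD Polr1c read 2108, 3577 and 2701 against 2833, 3175 and 2582, which overlap, with a change of -0.06.

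The subunits particular to RNA polymerase I did not pass in either comparison. Polr1a, the largest and catalytic subunit, read 664, 442 and 429.5 on naive replicates 1 to 3, 339.9, 349 and 429 in GVHD, 503, 655 and 644 on naive replicates 4 to 6 and 614, 597, 278, 736 and 689.9 in tumor. All GVHD arrays lay below their controls, though by little (change -0.41, adjusted p = 0.414), and tumor replicate 3 was the lowest of the 14. Polr1b, the second-largest subunit, read 218, 348 and 371 on naive replicates 1 to 3, 382, 152 and 289 in GVHD, 359.9, 413 and 668 on naive replicates 4 to 6 and 847, 432, 347, 952 and 1089 in tumor. Its tumor replicates 1, 4 and 5 were above every other array and replicates 2 and 3 within the controls' range or below it, for a change of 0.50 (SE 0.38, adjusted p = 0.347). Polr1e, a subunit of the polymerase's accessory dimer, read 538, 515 and 587 on naive replicates 1 to 3, 669, 638 and 558 in GVHD, 803, 338 and 427 on naive replicates 4 to 6 and 334, 428, 562, 341 and 423 in tumor, overlapping throughout, with changes of 0.17 and -0.24.

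Nop58 had the greatest rise of the 41 in tumor. With Nop56 it forms the protein core of the box C/D ribonucleoproteins, which guide ribose methylation of ribosomal RNA. It read 772, 1543 and 1984 on naive replicates 4 to 6 and 4843, 2015, 7398, 5699.5 and 4539 in tumor. Tumor replicate 2 was just above the highest control and the others were far above it; Nop58 rose 3.33-fold (log2 1.73, SE 0.37, adjusted p = 0.00224). In GVHD it read 1507, 1685 and 1361 against 1184, 1334 and 922, a small shift without overlap (0.41, adjusted p = 0.531). Nop56 was at 0.70 in tumor (adjusted p = 0.0922) and -0.61 in GVHD (adjusted p = 0.227), and neither passed. A second, dimmer probe set of Nop56 was at 0.79 in tumor (limma's adjusted p over probe sets = 0.0462). In GVHD that probe set was at 0.15 (adjusted p = 0.787). Nop10, a protein of the box H/ACA ribonucleoproteins that guide pseudouridylation and of telomerase, was at -0.19 in tumor and -0.75 in GVHD, and did not pass either.

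The small subunit processome had 18 of the 41 genes. In tumor 3 of them rose, Utp4, Utp6 and Utp18, and none fell; the rises are 16.7% of the 18, near the 16.2% of all genes. The median change was 0.33 and 15 were above 0. Utp4, of the subcomplex that joins the precursor first, read 1423, 1374 and 1394 on naive replicates 4 to 6 and 2722, 2298, 2833, 3186 and 2841 in tumor. These tight groups did not overlap, and Utp4 rose 1.96-fold (log2 0.97, SE 0.21, adjusted p = 0.00244). Nol11 and Utp15 of the same subcomplex were at -0.09 and 0.32 and did not pass. Dimmer probe sets of Nol11 disagreed in tumor, at 0.56, 0.59 and -1.44. Only the last of these passed (limma's adjusted p over probe sets = 0.0128). Utp18 and Utp6 belong to the UtpB subcomplex. Utp18 read 1739, 2009 and 2279 on naive replicates 4 to 6 and 4024, 2035, 5168, 4339 and 3811 in tumor, with only tumor replicate 2 inside the controls' range, and rose 1.84-fold (log2 0.88, adjusted p = 0.0325). That call was lost without naive replicate 4, 5 or 6 or tumor replicate 1, 4 or 5. Utp6 read 1334, 1276 and 1570.3 on naive replicates 4 to 6 and 2264, 1531, 5212, 3245 and 2456 in tumor, again with replicate 2 alone inside that range, and rose 1.93-fold (log2 0.95, adjusted p = 0.0284), a call lost without naive replicate 4, 5 or 6 or tumor replicate 4.

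In GVHD, Utp6 rose and Utp20 and Utp25 fell, 5.56% and 11.1% of the 18 against 9.83% and 12.5% of all genes. Utp6 read 623, 722 and 562 on naive replicates 1 to 3 and 1394, 1841 and 1831 in GVHD, without overlap (2.57-fold, log2 1.36, SE 0.35, adjusted p = 0.00945). Naive replicates 4 to 6 were again close to the GVHD arrays, and the difference from them was 0.27 (adjusted p = 0.588). Utp20, a large scaffold protein of the processome, read 1107, 1238 and 1196 on naive replicates 1 to 3 and 527, 541 and 571 in GVHD, and fell 2.10-fold (log2 -1.07, SE 0.32, adjusted p = 0.0263). The groups were far apart, but against naive replicates 4 to 6 the difference was -0.43 (adjusted p = 0.322), and the call was lost when any 1 of its 6 arrays was left out. Utp25 read 1293, 1237 and 1724 on naive replicates 1 to 3 and 519, 707 and 745 in GVHD, also without overlap, and fell 2.10-fold (log2 -1.07, SE 0.25, adjusted p = 0.00609). Against naive replicates 4 to 6 Utp25 also fell (-0.88, adjusted p = 0.0152). In tumor Utp25 differed from its controls by less than 0.01 and Utp20 by 0.11.

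The other 13 processome genes passed neither test. In tumor their changes ran from -0.27 for Nol6 to 0.77 for Utp14b, with Utp11 at 0.61, Rrp7a at 0.59 and Nop14 at 0.55. In GVHD they ran from -0.88 for Nol6 to 0.41 for Utp3. Utp14b is a retrogene copy of Utp14a, so its probe set may also read the parent, and its value is uncertain. Rrp9, a protein of the U3 ribonucleoprotein at the heart of the processome, was at 0.33 in tumor and -0.17 in GVHD. Nol10, Rrp36 and Utp23 stayed within 0.25 of 0 in both comparisons, and none of them passed.

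Of 3 factors of later small subunit maturation, 1 rose in tumor and another in GVHD (33.3% in each, against 16.2% and 9.83% of all genes). Rrp12, which binds maturing subunits and serves their export, read 175, 227 and 407 on naive replicates 4 to 6 and 867, 455, 800.2, 1469 and 1121 in tumor. No array overlapped, replicate 2 being the closest to the controls, and Rrp12 rose 3.18-fold (log2 1.67, SE 0.35, adjusted p = 0.00201). In GVHD it read 226, 189 and 187 against 115, 239 and 175, with a change of 0.20. Nop9, an RNA-binding protein of the small subunit precursor, was called in GVHD instead. It read 814, 976 and 751 on naive replicates 1 to 3 and 1906, 3013 and 3019.7 in GVHD, where every array was far above the controls, and rose 3.00-fold (log2 1.58, SE 0.32, adjusted p = 0.00185). Naive replicates 4 to 6 read 679, 1046 and 1005, and against them too it rose (2.83-fold, adjusted p = 0.00218). In tumor Nop9 read 1394, 766, 1429, 1841 and 1426, with replicate 2 inside the controls' range, and its change of 0.55 did not pass (adjusted p = 0.155). The tumor change minus the GVHD change of Nop9 was -1.04 (adjusted p = 0.145) and did not pass, while tumor set directly against GVHD was lower (-0.95, adjusted p = 0.0147). Nol7 was at -0.60 in tumor and -0.09 in GVHD and passed neither test.

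**Figure D3:**
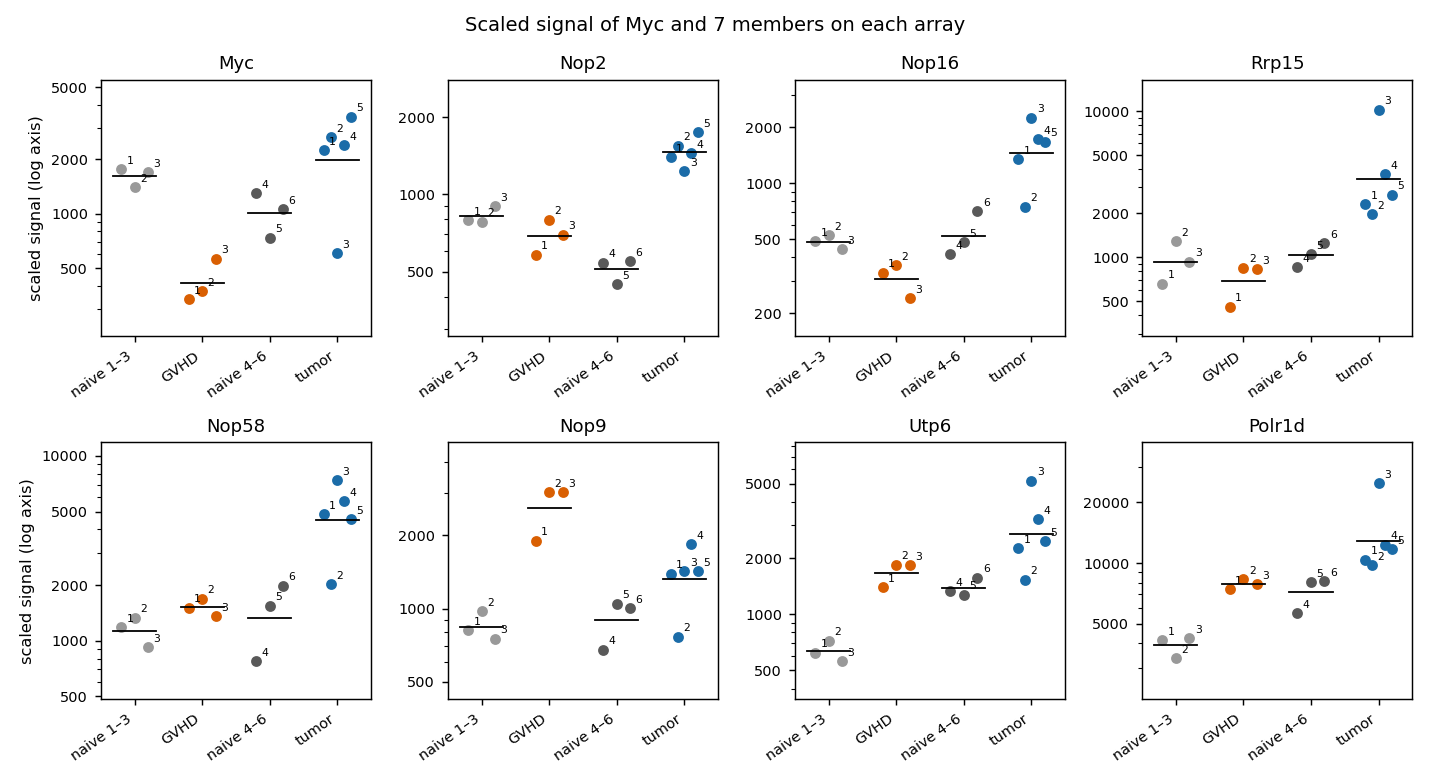
Scaled signal (log axis) of Myc and 7 of the genes on each array, with replicate numbers beside the points and the mean of the log2 values as a line. Nop2, Nop16, Rrp15 and Nop58 are higher in tumor than in the other groups, Nop9 is highest in GVHD, and for Utp6 and Polr1d naive replicates 4 to 6 sit near the GVHD arrays.

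Large subunit factors made up 10 of the 41 genes. In tumor Nop2, Nop16 and Rrp15 rose and Nop53 fell, and in GVHD Nol8 fell. The tumor calls are 30% up and 10% down, against 16.2% and 15.5% of all genes. The GVHD fall is 10% of the 10, against 12.5% of all genes. Nop2, which methylates a cytosine of the large subunit's RNA, read 542, 448 and 550.2 on naive replicates 4 to 6 and 1391, 1545, 1229.9, 1445 and 1746 in tumor. The groups were wide apart with little spread, and Nop2 rose 2.75-fold (log2 1.46, SE 0.21, adjusted p = 0.000101). In GVHD it read 582, 796 and 695 against 792, 782 and 897, overlapping, with a change of -0.25. The tumor change exceeded the GVHD change by 1.71 (SE 0.32, adjusted p = 0.00227).

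Nop16, an assembly factor of the large subunit, read 415, 482 and 708 on naive replicates 4 to 6 and 1350.5, 748, 2253, 1726 and 1676 in tumor. Tumor replicate 2 was near the top control and replicate 3 was the brightest; Nop16 rose 2.69-fold (log2 1.43, SE 0.31, adjusted p = 0.00265). In GVHD it read 330.3, 363 and 240.4 against 488, 527 and 442, all lower without overlap, but the change of -0.61 did not pass (adjusted p = 0.234). The difference between the changes was 2.04 (SE 0.46, adjusted p = 0.00916).

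Rrp15, needed to form the large subunit, read 855, 1051 and 1249.5 on naive replicates 4 to 6 and 2296, 1964, 10236, 3706 and 2666 in tumor. All tumor arrays exceeded the controls, and replicate 3 read far above the rest. It rose 3.21-fold (log2 1.68, SE 0.43, adjusted p = 0.00774), and the change was 1.29 without replicate 3, again past the test. In GVHD it read 459, 848 and 828 against 659, 1283 and 933, overlapping, with a change of -0.41. The changes differed by 2.10 (SE 0.65, adjusted p = 0.0479), a call that was kept only where the array left out was tumor replicate 1, 2 or 3.

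Nop53, a late factor that links the large subunit precursor to the exosome, was the only one of the 41 to fall in tumor. It read 15964, 17253 and 15994 on naive replicates 4 to 6 and 13009, 12505, 8320, 10359 and 10739 in tumor, all lower and replicate 3 the lowest. It fell 1.51-fold (log2 -0.59, SE 0.20, adjusted p = 0.0307), a call lost without naive replicate 4, 5 or 6 or tumor replicate 4 or 5. Dimmer probe sets of Nop53 were at -0.35 and -0.49 in tumor and did not pass (limma's adjusted p over probe sets = 0.403 and 0.195). With the mean over its probe sets the call was lost. Nol8 fell in GVHD, from 576, 651 and 682 on naive replicates 1 to 3 to 347, 288 and 398, without overlap (1.78-fold, log2 -0.84, adjusted p = 0.0436). The call was lost in 10 of the 14 fits without 1 array, and kept without naive replicate 4 or 6 or tumor replicate 2 or 3. Naive replicates 4 to 6 read 968, 945 and 679, and against them Nol8 fell by 1.25 on the log2 scale (adjusted p = 0.00353). The remaining large subunit genes passed neither test. Rrp8, a methyltransferase of the large subunit's RNA, read 1803, 836, 3065, 2818 and 2312 in tumor against 446, 1409.5 and 2042, a wide overlap with a change of 0.84 (adjusted p = 0.171). Rrp1b was at 0.35 in tumor, where replicate 3 (484) lay below every control and the other 4 arrays above every control, and Nol12, Rrp1 and Nol9 were at 0.17, 0.12 and -0.13.

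A few symbols meet the naming rule without a known place in ribosome assembly. Nol3, an inhibitor of apoptosis, read 138, 172 and 105 on naive replicates 1 to 3, 124, 185 and 282 in GVHD, 68.2, 34.9 and 32 on naive replicates 4 to 6 and 39.2, 103, 28.4, 37.3 and 67.8 in tumor, and passed neither test. Nol4l read 149, 157 and 139 on naive replicates 1 to 3 and 20.2, 21.9 and 9.20 in GVHD, without overlap, and fell (-1.88, SE 0.33, adjusted p = 0.000701). Its GVHD signals were all under the filter's 100, which it passed through arrays of the other groups, and the offset sets the size of its fall: -3.13 with an offset of 1 and -1.085 with 100. Without Nol3 and Nol4l, 3 of 39 rose and 3 fell in GVHD (9.83% and 12.5% of all genes). In tumor 10 of the 39 rose and 1 fell (16.2% and 15.5% of all genes).

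The difference between the tumor and GVHD changes was called for 3 of 41 genes (7.32%), Nop16, Nop2 and Rrp15, all toward tumor, against 10.8% of all genes (7.39% toward tumor and 3.39% toward GVHD). Its median over the 41 was 0.52, beside 0.01 for all genes, and 31 of the 41 were above 0. Polr1d and Utp6 rose in both comparisons, and 25 genes were called in neither. When tumor was set directly against GVHD, without the controls, 18 of the 41 were higher in tumor (among them Rrp15 at 2.26, Nop16 at 2.14, Rrp12 at 1.97 and Utp18 at 1.86) and 4 were lower (Nol3 at -1.40, Rrp7a at -1.06, Nop9 at -0.95 and Nop53 at -0.91), against 20.2% and 18.6% of all genes. Without tumor replicate 3 the difference of the changes was called toward tumor for 7 genes (11.4% of all genes), and without tumor replicate 2 for 6 (8.31%). Without rescaling it was called toward tumor for 0 and toward GVHD for 21 of 42 (2.51% and 56.2% of all genes).

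**Figure D4:**
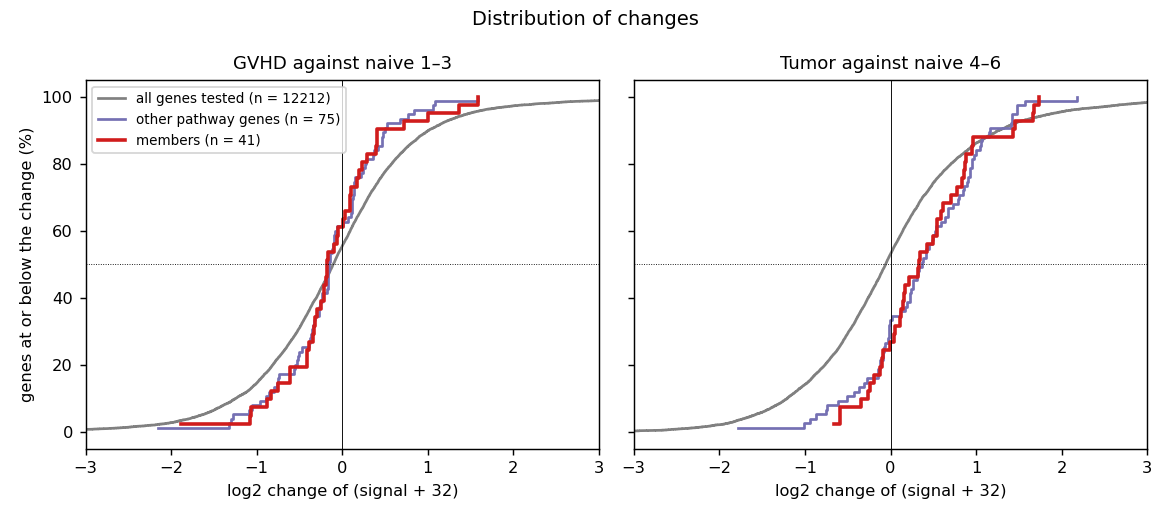
Cumulative share of genes by log2 change (drawn from -3 to 3) for the 41 genes (red), 75 other genes of the pathway (purple) and all 12212 genes tested (grey), in GVHD (left) and tumor (right). The red and purple lines run left of 0 at their middle in GVHD (medians -0.17 and -0.15) and right of it in tumor (0.33 and 0.36).

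Naive replicates 4 to 6 were also set against naive replicates 1 to 3, which by their labels are the same kind of cell. Only Rrp7a was called, lower in replicates 4 to 6, beside 7.86% of all genes (4.43% higher and 3.43% lower). This processome gene read 639.9, 472 and 470.2 on replicates 1 to 3 and 171, 160.1 and 140.2 on replicates 4 to 6, with no overlap (log2 -1.55, SE 0.33, adjusted p = 0.0118), a call lost without naive replicate 1 or 6. Utp6 (1.10), Nol3 (-1.15) and Polr1d (0.87) were also apart between the naive sets without overlap, and did not pass. Another probe set of Polr1d went the other way (-1.34). In all, 15 of the 41 did not overlap (36.6%; 6 higher and 9 lower in replicates 4 to 6), against 40% of all genes (18.7% and 21.4%). Of the 10 genes that rose in tumor all 10 also rose when the same tumor arrays were set against naive replicates 1 to 3, and Nop53 fell there too. Nol3 (-1.01), Nol9 (-0.96), Nop10 (-1.13), Rrp1 (-0.68) and Rrp7a (-0.97) also fell against those controls. Of the 3 that rose in GVHD, only Nop9 also rose against naive replicates 4 to 6, and of the 4 that fell, Nol4l, Nol8 and Utp25 also fell. Against those controls Rrp7a (1.65), Nol3 (1.54) and Nol12 (1.07) rose too, and Utp18 (-0.98) fell. In all, 4 rose and 4 fell there (15.4% and 17.8% of all genes). Cell cycle genes were higher in naive replicates 4 to 6 for 10 of 17.

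Tumor replicates 2 and 3 marked the ends of the tumor group. Among the 10 genes that rose in tumor, replicate 3 was the brightest of the 5 arrays in 7 and the dimmest in 1, Nop2, and replicate 2 was the dimmest in 8. Over all 41 genes replicate 3 was brightest in 18 and dimmest in 13. Without replicate 3 all 10 rises were still called. Without tumor replicate 2 and naive replicate 4, the arrays with the highest Gapdh ratios, 8 of the 10 were, and Polr1c and Polr1d were not.

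Several genes had more than 1 probe set, and these did not always move together. Among 23 such genes the probe sets shared a direction in 10 for GVHD and in 14 for tumor. For Polr1d, the GVHD changes were 1.00, 0.96, 0.48 and -0.11 over its 4 probe sets, and the tumor changes 0.85, 1.00, 1.03 and 0.28. In the same order, naive replicates 4 to 6 differed from naive replicates 1 to 3 by 0.87, 0.47, -1.34 and -0.32. On the probe set at -1.34 the GVHD arrays read 4650, 4716 and 3557, above 1009, 1490 and 1120 on naive replicates 4 to 6. For Utp6 the changes were 1.36, -0.46 and 0.89 in GVHD and 0.95, 0.27 and 0.71 in tumor. A dim second probe set of Nop16, at most 134 on any array, was at 0.03 in tumor. A second probe set of Rrp7a fell by 1.68 in GVHD (limma's adjusted p over probe sets = 0.000899), where the brighter one was at 0.09. The dimmer probe sets of Polr1a were at -1.62 and -1.22 in GVHD (adjusted p = 0.045 and 0.0605), and 1 of these fell by 1.30 in tumor (adjusted p = 0.021). With the mean over the probe sets of each gene, 1 gene rose in GVHD and 8 in tumor, beside 8.97% and 15.9% of all genes.

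The other genes of the pathway, 75 genes that fill the same roles under other symbols, were measured too. In tumor 23 rose and 3 fell (30.7% and 4.00%, against 16.2% and 15.5% of all genes), with a median change of 0.36. All 5 genes listed with Nop10 under box H/ACA ribonucleoproteins rose: Nhp2 (1.47), Shq1 (1.41), Naf1 (1.16), Gar1 (0.97) and the pseudouridine synthase Dkc1 (0.93). In fits that left out 1 array of 14, between 2 and 5 of them were called, the fewest without naive replicate 5. Large subunit factors gave 8 rises of 29, led by Wdr12 (1666, 1249, 7313, 2242 and 2084 in tumor against 444, 473 and 575, log2 2.18, adjusted p = 0.00143). The nucleolar proteins Nolc1 (1.57), Ncl (0.96) and Npm1 (0.89) rose as well. None of the 8 initiation and termination factors of RNA polymerase I rose, and Taf1c (-1.78), of its promoter selectivity factor, and the terminator protein Ttf1 (-0.94) fell. At limma's unadjusted p under 0.05, 0 of these 8 were higher and 4 lower. Of all 12212 genes, 2500 were higher and 2602 lower at that cut. Centred on T cell markers, 4 of the 8 rose and 0 fell. Of the 75 genes 67 then rose and 0 fell, where 67.0% of all genes rose.

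In GVHD 3 of these 75 rose and 8 fell (4.00% and 10.7%, against 9.83% and 12.5% of all genes), with a median of -0.15. Without rescaling 65 rose and 0 fell (64.7% of all genes rose), and centred on T cell markers none were called. Bysl, of small subunit maturation, rose most (981, 1627 and 1997 against 476, 505 and 434, log2 1.58, adjusted p = 0.000776), followed by Nhp2 (1.08). Mdn1, the giant ATPase of large subunit maturation, fell most (286, 465.5 and 473 against 1595, 2110.1 and 1974, log2 -2.15, adjusted p = 0.000200), followed by Wdr46 (-1.32). The difference between the changes was called toward tumor for 8 of the 75 (10.7% against 7.39% of all genes), among them Nolc1, Npm1, Gnl3 and Mdn1, and toward GVHD for Ttf1.

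Of 10 measured genes of the Myc network, Mxd4, which competes with Myc for its partner Max, fell in GVHD (1383, 882 and 971 against 5382, 6002 and 6036, log2 -2.42, adjusted p = 0.00285) and in tumor (570.1, 1282, 158, 467 and 647 against 5305, 2668 and 1942, log2 -2.47, adjusted p = 0.000863). Mxd3 of the same family rose in GVHD (1452, 1206 and 1087 against 41.9, 333 and 138, log2 2.94, adjusted p = 0.000501) and was at 0.06 in tumor. Mga fell in both (-1.56 and -1.08), Mlx rose in GVHD (0.73), and Mxi1 rose in tumor (1.33).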

How the data were processed

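The deposited values are probe set intensities that the authors computed with MAS5, the array maker's signal algorithm, per the submitters' processing notes (version not given in the sources used here). All 14 arrays were brought to a common 2% trimmed mean of 500 before log2(signal + 32) was computed. Probe sets with 1 gene symbol in the platform annotation were used, control probe sets were left out, a signal of 100 in at least 3 arrays was required, and each gene took its probe set of highest mean. Limma 3.58.1 in R 4.3.3 (lmFit and eBayes with a trend) fitted the means of 4 groups over all arrays, with Benjamini-Hochberg adjustment; every adjusted p is limma's, and the fit was tested on simulated data. The GVHD and tumor changes use different controls, and the direct comparison of tumor with GVHD shares arrays with both.

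The 42 genes, the role lists and the marker lists (T cell, Treg cell, mast cell, macrophage, B cell and cell cycle) were chosen with earlier results of these data known. Values on every array are given for Myc, the RNA polymerase I subunits, and up to 6 called rises and falls per comparison; the others named are members chosen for their role or after their values were seen. Promoter sequences are RefSeq's (GRCm38.p6). Probe positions are not printed, as no source used here names the build of the array's probes. The number of arrays limits precision. Alternatives covered offset, filter, scaling, probe choice, weights, controls, the replicate number as a block and each array left out.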

Additional observations from a re-analysis of the deposited data

Results flagged for a closer look

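On tumor replicate 3 the signal of 9 of the 42 genes tested (the 41 members and Myc) stood apart from the other 4 tumor arrays by a Dixon gap test, which chance alone meets in about 1 in 20 groups. No other tumor array stood apart in any of them. The test was run on these 42 genes only, so the share of all genes that stood apart on tumor replicate 3 is not known. The 9 flags come from the same array, so they are not independent of each other. That array also had the lowest share of probe sets at a signal of 100 or more (37.3%). It was high for Polr1d (24866, others 9724 to 12313), Polr1c (10977, others 3639 to 4844), Utp11 (7515, others 2519 to 3136), Rrp36 (1573, others 808 to 960) and Nol11 (972, others 767 to 820). It was low for Myc (608, others 2253 to 3449), Rrp1b (484, others 1999 to 2637), Polr1a (278, others 597 to 736) and Nol6 (88.8, others 239 to 301). The same array had the lowest T cell marker signal and the highest mast cell and macrophage signals of the 14, and their part in these values was not tested.

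The tumor change exceeded the GVHD change, by limma's test of the difference, for Myc by 2.83 on the log2 scale, for Rrp15 by 2.10, for Nop16 by 2.04 and for Nop2 by 1.71. In Myc 4 of 5 tumor arrays lay above all their controls and all 3 GVHD arrays below theirs. In Nop16 all 5 tumor arrays were above and all 3 GVHD arrays below. In Nop2 and Rrp15 all 5 tumor arrays were above, while GVHD overlapped its controls.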

How the results depend on the processing

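The offset and the filter at 200 moved the counts little. Larger shifts under other settings are given here, and those with 1 array left out are given below. For GVHD (3 rose, 4 fell), without rescaling 34 rose and 1 fell (64.7% and 1.67% of all genes), since those arrays were deposited 3 times higher. Myc became -0.37, and Nol8 (0.66), Utp20 (0.46) and Utp25 (0.47) changed sign. Centred on T cell markers none rose or fell (1.97% and 0.991% of all genes) and Myc was -1.55. With the mean over probe sets 1 rose (8.97%). Against the other naive arrays Myc was -1.22. For tumor (10 rose, 1 fell), centring on T cell markers moved the median of all genes to 1.84 and of the 41 to 2.23. It gave 37 and 0 (67.0% and 0.246% of all genes), with Nop53 at 1.31 and Myc at 2.85. Array weights, whose estimation stopped before full convergence, gave 21 and 4 (28.9% and 29.4% of all genes), with Myc at 1.74. The tumor and naive 4 to 6 arrays alone gave 6 and 0 (12.7% and 9.83%). Falls were 0 with no filter (9.14%) and 6 with naive replicates 1 to 3 as controls (25.2%). Myc in tumor was 1.15 with quantile normalization, which moved the median of all genes in GVHD from -0.11 to 0.05, and 1.40 without tumor replicate 3 and naive replicate 6.

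For the difference 3 were called toward tumor and 0 toward GVHD (7.39% and 3.39% of all genes). The count toward tumor was 5 with quantile normalization (7.55% of all genes) and 1 centred on T cell markers (4.27%). It was 7 without tumor replicate 3 and naive replicate 6 (10.9%). Without rescaling the counts were 0 and 21 (2.51% and 56.2%), with Myc at 1.32. They were 16 and 2 with weights (19% and 12.8%) and 18 and 4 for tumor directly against GVHD (20.2% and 18.6%). For the naive sets 0 rose and 1 fell (4.43% and 3.43% of all genes). There were 0 falls centred on T cell markers (0%) and 1 rise with the mean over probe sets (2.85%). Rises and falls were 3 and 3 with quantile normalization (6.9% and 4.27%) and 7 and 13 with weights (19.8% and 23.2%). The naive arrays alone gave 3 and 5 (10.2% and 9.1%). Without tumor replicate 3 and naive replicate 6 they were 2 and 3 (7.77% and 5.51%). Without tumor replicate 2 and naive replicate 4, a setting chosen after seeing the data, they were 1 and 2 (5.07% and 5.16%). The cause of these shifts was not tested.

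With 1 array left out, rises and falls ranged from 2 to 3 and 2 to 5 in GVHD (2 falls without any 1 array of either group), 6 to 12 and 0 to 1 in tumor (6 without naive replicate 5), 2 to 7 and 0 to 0 for the difference (7 without tumor replicate 3), and 0 to 3 and 0 to 6 for the naive sets (3 and 6 without tumor replicate 3). Myc ranged from -2.09 to -1.74 in GVHD, 0.74 to 1.37 in tumor and 2.61 to 3.24 for the difference. Same-numbered arrays did not deviate together (correlations of -0.50 to 0.10). With so few arrays this check cannot show whether the numbers pair the samples. With the replicate number as a block, 2 rose and 3 fell in GVHD (7.72% and 9.18% of all genes). In tumor 4 rose and 0 fell (8.23% and 3.68%). The difference gave 3 and 0 (5.09% and 1.73%), and the naive sets gave 0 and 0 (0.106% and 0.0491%). Nol4l, under 100 on every GVHD array, shows what low signal limits: its call held but its size moved from -3.13 to -1.085 with the offset.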
